A study of Mus musculus with 54 samples.

Results

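Cholesterol synthesis, its regulation by SREBP2 and the handling of the product were examined through 29 named genes of the 24346 gene symbols in a liver expression table. The genes were chosen by name, with earlier results of these data known. They were 20 enzymes from acetyl-CoA to cholesterol and 4 genes of the SREBP2 control circuit. The rest were 2 genes of sterol transport inside the cell and 3 genes of cholesterol esterification and efflux. All 29 were present, all passed the filter on low values, and no member was listed at 0 in any library. Whole mouse liver was measured in 54 RNA-seq libraries, with 3 livers in each of 18 groups formed by 3 genotypes and 6 times. Times are zeitgeber times, every 4 h from ZT0 (lights on) to ZT20. KO mice carried a floxed STOP codon in the core clock gene Bmal1 (symbol Arntl). RE mice carried the same allele together with Syt10-Cre, which was used to restore Bmal1 in the suprachiasmatic nucleus, the central clock of the brain. WT mice expressed Bmal1 in all tissues. The comparisons therefore ask which rhythms and levels of these transcripts were found with both clocks, with neither, and with the central clock alone. Age and sex were not given in the labels used here, and nothing further was stated on whether the 3 livers of a group were independent animals, so the tests measure the spread between these livers.

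Cells make cholesterol from acetyl-CoA through mevalonate, isoprenoid diphosphates, squalene and lanosterol, and the liver is the main organ that secretes it into blood and bile. Most genes of the route are switched on by SREBP2, a transcription factor that starts as a membrane protein in the endoplasmic reticulum. When sterols are scarce the escort protein SCAP carries it to the Golgi, where it is cut and released to the nucleus, and when sterols are plentiful INSIG proteins hold SCAP back. SREBP2 binds sterol regulatory elements, often beside a CCAAT box bound by NF-Y, while E-boxes (CACGTG) are the sites of the clock factors CLOCK and BMAL1.

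Stretches upstream of 5 members are shown because these genes carry the main patterns below: the enzyme with the largest level difference from WT (Hmgcs1), an enzyme with a large rhythm in RE (Lss), the regulator itself (Srebf2) and both brakes (Insig1 and Insig2). They were taken from RefSeq on GRCm38.p6 (mm10), run 5′ to 3′ on the strand of the gene and end at the base before its most upstream annotated start. Capitals mark every match, on either strand, to TCACNCCAC (a sterol regulatory element), CCAAT (which reads ATTGG on the other strand), CACGTG or AGGTCA (the core of nuclear receptor sites). The stretches lie at chr13:119690101-119690350 on the plus strand (Hmgcs1), chr10:76531355-76531564 on the plus strand (Lss), chr15:82147019-82147268 on the plus strand (Srebf2), chr5:28071162-28071411 on the plus strand (Insig1) and chr1:121332663-121332839 on the minus strand (Insig2).
Hmgcs1: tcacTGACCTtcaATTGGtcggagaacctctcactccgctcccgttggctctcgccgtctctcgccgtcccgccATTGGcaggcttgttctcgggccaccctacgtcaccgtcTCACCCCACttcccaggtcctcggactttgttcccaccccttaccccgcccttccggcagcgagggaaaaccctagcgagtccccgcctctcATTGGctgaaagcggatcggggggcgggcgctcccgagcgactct
Lss: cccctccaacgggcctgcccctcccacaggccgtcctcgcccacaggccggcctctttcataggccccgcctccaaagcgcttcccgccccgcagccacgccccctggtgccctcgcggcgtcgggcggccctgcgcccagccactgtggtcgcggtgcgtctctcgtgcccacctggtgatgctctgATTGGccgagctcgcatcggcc
Srebf2: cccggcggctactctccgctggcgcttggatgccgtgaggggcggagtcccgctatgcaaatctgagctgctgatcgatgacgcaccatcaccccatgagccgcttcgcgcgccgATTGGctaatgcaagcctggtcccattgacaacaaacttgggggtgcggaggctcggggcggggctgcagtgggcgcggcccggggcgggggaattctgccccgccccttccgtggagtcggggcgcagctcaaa
Insig1: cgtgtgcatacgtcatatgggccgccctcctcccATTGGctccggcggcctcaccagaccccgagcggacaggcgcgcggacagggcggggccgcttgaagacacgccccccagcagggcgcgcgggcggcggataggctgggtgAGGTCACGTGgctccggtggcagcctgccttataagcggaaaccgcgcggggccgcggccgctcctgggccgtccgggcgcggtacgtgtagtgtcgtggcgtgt
Insig2: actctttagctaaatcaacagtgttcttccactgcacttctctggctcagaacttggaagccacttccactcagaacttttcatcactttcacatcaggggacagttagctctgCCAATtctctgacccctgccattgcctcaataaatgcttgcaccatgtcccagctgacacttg

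In Hmgcs1 the sterol regulatory element match lay 137 to 129 bases before the start, between CCAAT matches that began 237, 176 and 45 bases before it. In Insig1 the AGGTCA match (105 to 100 bases before the start) and the CACGTG match (101 to 96) overlapped. Promoter windows of 300 bases (250 before to 50 after a start) were held for 24 of the 29 members, and for 27025 genes in all. CCAAT was found in 22 of these 24 members (91.7%), against 41.1% of all genes. CACGTG was found in 5 members (20.8%, against 8.09% of all genes): Hsd17b7, Sc5d, Dhcr7, Scap and Insig1. TCACNCCAC was found in Hmgcs1 alone (4.17% of the 24, against 1.44%), and AGGTCA in Hmgcs1, Dhcr7 and Insig1 (12.5%, against 18.1%). A gene counted as holding a motif if any of its windows did, and a match is a description of letters, not a measured binding site. Elements that depart from these letters were not counted, so the lack of a match does not show the lack of an element.

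Values are FPKM, which divide a gene's fragments by its length and by the size of the library, and tests used log2(FPKM + 1), on which 1 unit is a doubling and changes of low genes are understated. Total FPKM per library ran from 572995 to 751399. Arntl, the targeted gene, averaged 4.78 FPKM over the WT livers, 12.0 over the KO livers and 11.4 over the RE livers. The value covers the whole gene and so does not check the STOP allele. The hepatocyte marker Alb was listed at 0 in 18 of 18 WT libraries, 1 KO and 2 RE libraries, and the other 5 hepatocyte markers, none at 0 throughout a genotype, had summed medians of 26981 (WT), 22693 (KO) and 26854 FPKM (RE). With Alb the KO and RE medians were 36092 and 41073. Alb itself had medians of 13663 FPKM in KO and 13562 in RE, so its WT value of 0 cannot be read as a level. Whether other genes were also listed differently in WT than in KO and RE was not tested. The 3 WT livers of ZT0 had the highest sums of 8 intestinal markers, 136, 13.9 and 12.7 FPKM, against a WT median of 3.97. The sum of 5 bile duct markers had medians of 27.5 (WT), 68.9 (KO) and 64.2 FPKM (RE), and without Spp1 the 3 medians were 4.64, 5.17 and 4.83 in that order. Sums of 5 Kupffer cell markers had medians of 72.8 (WT), 60.7 (KO) and 45.1 FPKM (RE) with overlapping ranges (56.0 to 128, 35.4 to 129 and 26.3 to 115). Sums of 5 lymphocyte markers had medians of 1.495, 1.383 and 0.846 FPKM, of 5 endothelial markers 50.5, 43.7 and 44.3, and of 5 stellate cell and fibroblast markers 70.5, 77.9 and 70.3. Sums of 5 pancreas markers had medians of 22.9, 63.6 and 72.6 FPKM, and without Cela1 no library exceeded 0.531. The part of these markers in the level differences below was not tested. In whole liver, a change in the share of a cell type and a change in RNA per cell cannot be told apart.

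Livers of the same group differed more in these genes than in others. The median SD within a group was 0.20 log2 units for the members in WT, 0.34 in KO and 0.36 in RE, against 0.12, 0.14 and 0.17 over all genes tested. In some groups most members were extreme in the same liver. KO ZT0 liver 1 had the lowest value of its group for 27 of 29 members, RE ZT8 liver 2 for 27 and RE ZT12 liver 0 for 25, while RE ZT4 liver 0 had the highest for 26. These are among the most one-sided groups: in KO at ZT16, livers 2, 1 and 0 were highest for 11, 7 and 11 members. Such counts were not made over all genes, so whether whole libraries were shifted was not tested. In KO at ZT4, liver 0 was highest for 23 members and liver 1 lowest for 23. Livers are named by genotype, time and column number (0, 1 or 2).

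A 24 h rhythm was found in 26 of 29 members in RE, in 11 in WT and in 0 in KO, at an adjusted p under 0.05 (limma, Benjamini-Hochberg over 10932 genes), which is the call used throughout. Over all genes tested 46.8% were called in RE, 34.8% in WT and 0.0366% in KO. p values were adjusted within each genotype, so the unadjusted p needed for a call was not the same in the 3. At an unadjusted p under 0.05 (limma) the counts were 27 members in RE, 14 in WT and 5 in KO. Over the 10932 genes they were 5957, 4897 and 1301 in that order. In KO, a test of any difference among the 6 times also called 0 members (0.0457% of all genes). Members had a median amplitude, from mean to peak, of 0.32 (WT), 0.19 (KO) and 0.63 (RE), beside 0.14, 0.08 and 0.16 over all genes. Amplitude was larger in RE than in WT for 23 members (79.3%, against 57.3% of all genes). Both genotypes were called for 9 members, RE alone for 17, WT alone for 2 (Tmem97 and Abcg5) and neither for Ggps1. When WT libraries were fitted alone, with their own smaller spread, 21 members were called in WT, so a member called in RE and not in WT is not thereby shown to differ. The size of a rhythm difference is the amplitude of the curve left when one fitted rhythm is subtracted from the other, so it counts changes in size and in timing. The difference itself passed for 7 members between RE and WT (14.1% of all genes; 3 members, and 7.59% of all genes, in the test of any difference among times), 3 between KO and WT (9.06%) and 10 between RE and KO (3.07%).

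**Figure D1:**
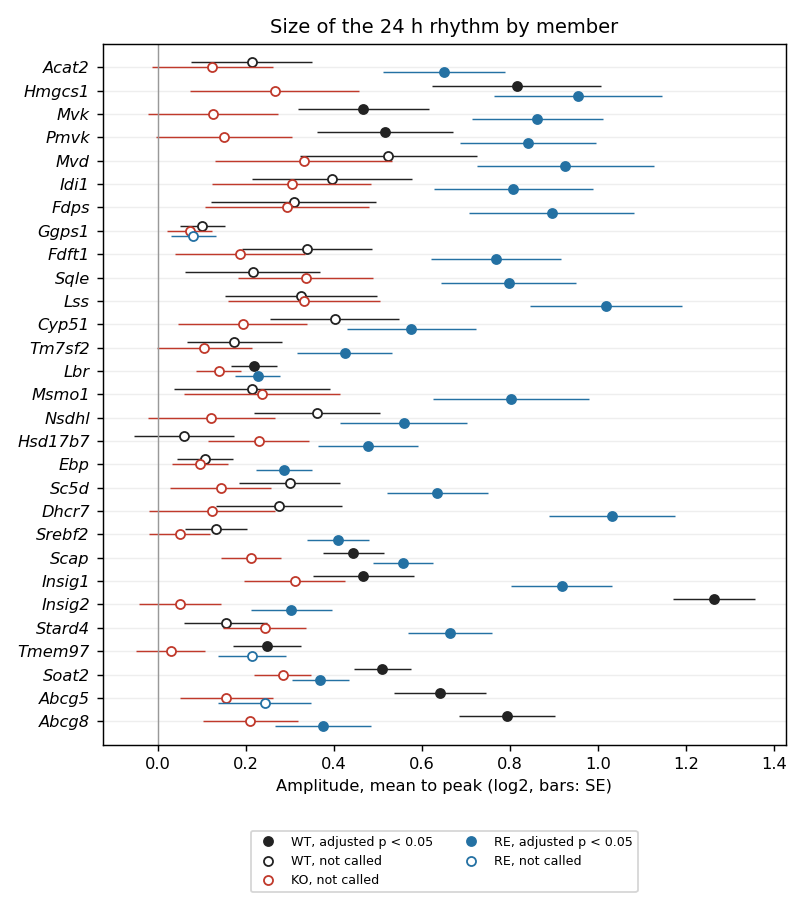
Amplitude of the 24 h rhythm of each member (x axis, log2 from mean to peak, bars are SE), in pathway order from top to bottom, with WT in black, KO in red and RE in blue. Filled circles are called (adjusted p under 0.05) and open circles are not: RE is filled for 26 members, WT for 11 and KO for none, and Insig2 is the member with WT far above RE.

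The 20 enzymes, averaged in each liver, were lowest at ZT12 in WT and in RE but not in KO. At ZT12 the mean log2 value was 5.25 ± 0.22 in WT (SD, n = 3, livers from 5.06 to 5.50) and 5.37 ± 0.34 in RE (4.99 to 5.64), and in KO it was 6.55 ± 0.19 (6.43 to 6.77). Every KO liver at ZT12 thus lay above every WT and RE liver. At ZT0 the order was different: KO (6.65 ± 0.49) and RE (6.74 ± 0.43) were both above WT (5.78 ± 0.19). At ZT20 RE stood at 6.62 ± 0.33, KO at 6.26 ± 0.27 and WT at 5.90 ± 0.09. The 3 KO livers at ZT4 spread from 4.95 to 6.57, the widest range of the 18 groups, and the 3 at ZT16 from 6.41 to 6.45, the narrowest.

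**Figure D2:**
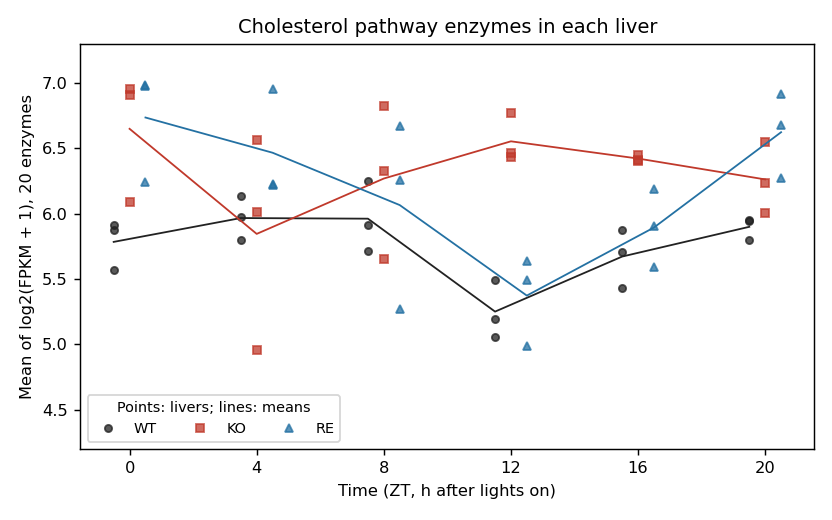
Mean of log2(FPKM + 1) over the 20 enzymes (y axis) by time (x axis, ZT in h), 1 point per liver and a line through the means of 3 livers, with genotypes set slightly apart along the axis for legibility. WT and RE dip together at ZT12, where KO stays above 6.4, and RE and KO lie above WT at ZT0.

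Gene by gene, 16 of 20 enzymes had their lowest WT mean at ZT12 (21% of all genes did) and 19 of 20 their lowest RE mean there (12% of all genes). None of the 20 was lowest at ZT12 in KO (12.1% of all genes). There 16 were lowest at ZT4 (22.7% of all genes), the group with the wide range, and 17 were highest at ZT0 (14.2%). At ZT12 alone, KO was higher than WT for 19 of 29 members, 16 of them enzymes, against 10.2% of all genes called higher. The livers did not overlap for 23 members, all higher in KO, against 19.2% of all genes. The median difference at ZT12 was 1.37 for the enzymes and 0.00 over all genes. Leaving out KO ZT12 liver 2 reduced the 19 to 12. For RE against WT at ZT12 the median over enzymes was 0.05, with 2 members higher (Hmgcs1 and Insig2; 9.62% of all genes) and 2 lower (Insig1 and Stard4; 9.26%). RE livers lay wholly below KO livers at ZT12 for 24 members (8.47% of all genes) and wholly above them for 1 (Insig2; 8.14%), and 2 of the former differences were called (Dhcr7 and Srebf2; 0.402% of all genes). The median RE minus KO difference at ZT12 was -1.32 for the enzymes and 0.00 over all genes. p values were adjusted within each comparison, so the numbers of calls do not rank the sizes of the differences. Tests at single times were added after the data had been seen. KO and RE were compared with the same WT livers.

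The mevalonate segment had 5 members, all called in RE and 3 in WT. Acat2 makes acetoacetyl-CoA, Hmgcs1 condenses it to HMG-CoA, Mvk and Pmvk phosphorylate mevalonate in turn, and Mvd decarboxylates the product to isopentenyl diphosphate. Hmgcs1 had the largest fitted amplitude of the segment in WT and in RE, and the largest level differences from WT. At ZT12 its 3 WT livers held 46.0, 69.5 and 34.8 FPKM, its KO livers 372, 310 and 469, and its RE livers 94.5, 130 and 164. The WT livers were the lowest, the KO livers the highest, and no liver of one genotype overlapped another. At ZT0 the WT livers held 132, 167 and 142 FPKM, the KO livers 565, 227 and 549, and the RE livers 668, 230 and 571, so that both mutant groups lay above WT. The Hmgcs1 rhythm had an amplitude of 0.81 (SE 0.19) with a peak at ZT1.8 in WT (limma adjusted p 0.0035) and 0.95 (SE 0.19) at ZT0.2 in RE (adjusted p 0.000535). In KO it was 0.27 (SE 0.19, adjusted p 0.766). The KO rhythm differed from that of WT by 1.05 (adjusted p 0.0252), a call lost without KO ZT0 liver 1, KO ZT4 liver 1 or WT ZT16 liver 1, and with no filter. It differed from that of RE by 1.13 (adjusted p 0.036), which was lost on leaving out any 1 of 10 livers.

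The other 4 members of the segment all cycled in RE. Mvk ranged from 9.19 to 26.1 FPKM in WT (median 13.9), from 11.4 to 59.5 in KO (median 33.0) and from 11.1 to 71.7 in RE (median 30.9). Its WT mean was highest at ZT8, 23.3 ± 2.59 FPKM, and its RE mean at ZT0, 53.6 ± 17.5 FPKM, and both were lowest at ZT12 (11.9 ± 2.43 and 14.5 ± 2.96). The fitted peak was at ZT4.6 (SE 1.2 h) in WT and ZT1.3 (SE 0.66 h) in RE, but the difference of the rhythms was not called (0.66, adjusted p 0.0699). Pmvk and Mvd cycled in RE with amplitudes of 0.84 and 0.93, and Acat2 with 0.65. In WT Pmvk was called (0.52, adjusted p 0.0262), and Mvd (0.52, adjusted p 0.1) and Acat2 (0.21, adjusted p 0.426) were not. The WT call of Mvk was lost on leaving out any 1 of 11 WT livers, and that of Pmvk without WT ZT0 liver 0, WT ZT0 liver 1 or WT ZT12 liver 2. Both were also lost with no filter and in the test of any difference among times. Level over the 6 times was higher in KO than in WT for all 5, from 0.39 for Pmvk to 1.21 for Hmgcs1, and the Pmvk call was lost on leaving out any 1 of 18 livers.

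The isoprenoid segment had 3 members, of which Idi1 and Fdps were called in RE and Ggps1 was not. Idi1 isomerises isopentenyl diphosphate, Fdps builds farnesyl diphosphate, the last precursor shared with other isoprenoids, and Ggps1 takes that precursor away to geranylgeranyl diphosphate. At ZT12 Idi1 held 77.5, 111 and 76.0 FPKM in WT livers, 292, 271 and 363 in KO and 66.2, 109 and 139 in RE, so KO stood above both and WT overlapped RE. Its RE rhythm had an amplitude of 0.81 (SE 0.18) and a peak at ZT23.3 (limma adjusted p 0.00175), and its WT rhythm was not called (0.40, peak ZT4.0, adjusted p 0.192). Fdps, the most abundant member by FPKM, had WT livers from 257 to 731, KO livers from 162 to 1196 and RE livers from 153 to 1209. Its RE means fell from 944 ± 310 FPKM at ZT0 to 248 ± 90.8 at ZT12, a 3.81-fold difference with no overlap of livers (amplitude 0.89, limma adjusted p 0.000846). Its level was 0.51 higher in KO than in WT (adjusted p 0.0257), a call lost without KO ZT4 liver 0 or KO ZT8 liver 0. Ggps1, the branch away from sterols, stayed between 1.90 and 4.17 FPKM in all 54 livers. It was the 1 enzyme not called in RE (amplitude 0.08, adjusted p 0.378), and its level was 0.15 (SE 0.05) higher in RE than in WT (adjusted p 0.0148).

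The step to squalene and lanosterol had 3 members, all called in RE and none in WT. Fdft1 joins farnesyl diphosphates to squalene, Sqle oxidises squalene in a rate-controlling reaction, and Lss closes the rings to lanosterol. Lss at ZT0 held 17.1, 17.0 and 11.4 FPKM in WT, 53.5, 24.2 and 53.1 in KO and 71.7, 35.2 and 61.5 in RE. At ZT12 it held 7.51, 9.26 and 7.27 FPKM in WT, 39.9, 32.5 and 46.5 in KO and 8.50, 15.3 and 13.2 in RE. RE livers thus lay with KO livers at ZT0 and near WT livers at ZT12. The RE amplitude of Lss was 1.02 (SE 0.17) with a peak at ZT23.5 (limma adjusted p 7.4e-05). In WT it was 0.32 (SE 0.17, peak ZT23.4, adjusted p 0.291), and the difference from RE was not called (0.69, adjusted p 0.113). In KO the amplitude was 0.33 (adjusted p 0.594), and the RE rhythm differed from that of KO by 1.14 (adjusted p 0.0218). This call was lost with no filter, with RE and KO fitted alone, and in the test of any difference among times. The level of Lss was 1.06 (SE 0.17) higher in KO and 0.92 (SE 0.17) higher in RE than in WT.

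Sqle and Fdft1 also cycled in RE and were not called in WT. Sqle ranged from 21.9 to 62.6 FPKM in WT (median 44.0), from 14.4 to 96.5 in KO (median 66.9) and from 16.2 to 113 in RE (median 56.1). Its RE mean fell from 91.6 ± 30.2 FPKM at ZT0 to 27.1 ± 9.54 at ZT12, and its WT means ran from 50.7 ± 2.27 at ZT20 to 26.1 ± 7.18 at ZT12. Amplitude in RE was 0.80 for Sqle and 0.77 for Fdft1, and in WT 0.22 and 0.34. In KO it was 0.34 for Sqle and 0.19 for Fdft1, and neither was called. The reads of Fdft1 may include reads of Ctsb, which overlaps it, since no statement was found on whether strand was used. The RE and KO rhythms differed for both (0.86, adjusted p 0.0479, and 0.85, adjusted p 0.0417, limma), and these calls were lost on leaving out any 1 of 36 and any 1 of 16 livers.

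**Figure D3:**
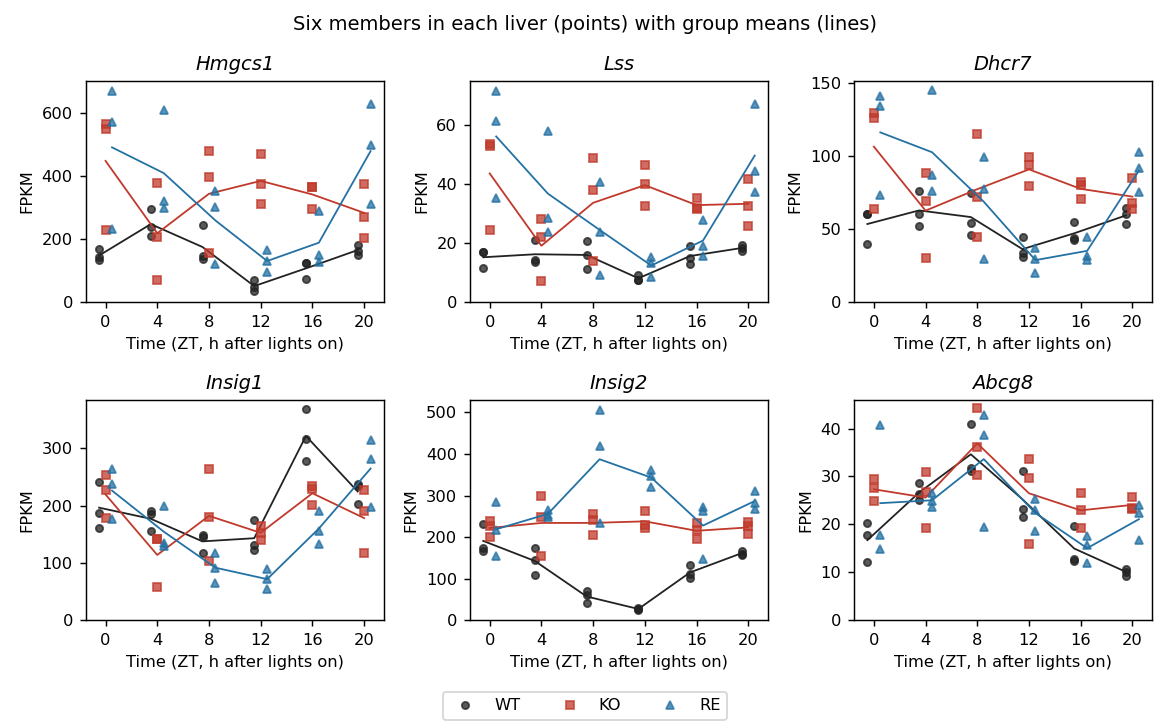
FPKM (y axis, from 0, own scale per panel) of Hmgcs1, Lss, Dhcr7, Insig1, Insig2 and Abcg8 by time (x axis, ZT in h), 1 point per liver and lines through the means of 3 livers. For Hmgcs1, Lss and Dhcr7 the RE line starts near KO at ZT0 and lies below KO at ZT12, where its livers overlap those of WT for Lss and Dhcr7 but not for Hmgcs1, while for Insig2 the WT line alone falls, to 27.4 FPKM at ZT12.

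From lanosterol to cholesterol 9 members were measured, all called in RE and 1 in WT (Lbr). Cyp51 removes the first methyl group, Tm7sf2 and Lbr are alternative sterol C14 reductases, Msmo1, Nsdhl and Hsd17b7 remove the C4 methyl groups together, Ebp moves a double bond, Sc5d adds one and Dhcr7 completes cholesterol. Dhcr7 had the largest amplitude of all members in RE. At ZT0 it held 60.3, 60.0 and 39.7 FPKM in WT livers, 126, 63.7 and 130 in KO and 141, 73.3 and 134 in RE. At ZT12 the WT livers held 33.6, 44.2 and 30.5, the KO livers 93.8, 79.2 and 99.2 and the RE livers 20.1, 36.6 and 29.1. At ZT0 the RE livers all exceeded the WT livers, and at ZT12 they overlapped them while KO stood apart. The rhythm had an amplitude of 1.03 (SE 0.14, peak ZT1.0) in RE and 0.27 (SE 0.14, peak ZT1.4) in WT. That difference was called (0.76, limma adjusted p 0.0251) but not without WT ZT0 liver 2, RE ZT0 liver 0, WT ZT12 liver 1 or RE ZT12 liver 0. The difference from KO was 1.09 (adjusted p 0.0109) and held without each library in turn. It was lost with RE and KO fitted alone, and the difference from WT was lost with no filter. Both calls were lost in the test of any difference among times.

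All 3 C4 demethylation genes were higher in level in KO and in RE than in WT. Msmo1 at ZT12 held 119, 167 and 97.1 FPKM in WT, 300, 322 and 379 in KO and 83.6, 140 and 176 in RE. Only the KO livers stood apart there, while at ZT0 the WT livers (132, 138 and 110) lay below all KO (480, 204 and 535) and RE livers (506, 213 and 541). Msmo1 cycled in RE (0.80, peak ZT23.4, limma adjusted p 0.00157). It was not called in WT (0.21, adjusted p 0.595) or in KO (0.24, adjusted p 0.783). The RE and WT rhythms differed by 0.86 (adjusted p 0.0441), which was lost on leaving out any 1 of 19 livers. That call was also lost with no filter and in the test of any difference among times. Nsdhl and Hsd17b7 had RE amplitudes of 0.56 and 0.48, and Hsd17b7 peaked earlier than most, at ZT21.3 (SE 0.91 h). Over the 6 times KO exceeded WT by 0.82 for Msmo1, 0.67 for Nsdhl and 0.41 for Hsd17b7, and RE exceeded WT by 0.75, 0.50 and 0.43.

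Of the other 6 sterol enzymes, Cyp51 and Tm7sf2 were called higher in level in both KO and RE, and Dhcr7 in KO. Cyp51 was 0.78 higher in KO and 0.68 higher in RE, and cycled in RE with an amplitude of 0.58 (peak ZT24.0). Tm7sf2 peaked at ZT3.4 in RE (0.42), the latest after lights on of the enzymes called there, and its values may include reads of the overlapping Vps51. Its level was 0.37 higher in KO, and 0.26 higher in RE, a call with limma adjusted p 0.0491 that was lost on leaving out any 1 of 33 livers and after median-ratio rescaling. Lbr, the other C14 reductase, was low (2.47 to 5.66 FPKM over all livers). Its fitted peak was at ZT18.3 in WT (amplitude 0.22) and ZT19.6 in RE (0.23), and neither level difference was called. Ebp (0.29) and Sc5d (0.63) cycled in RE with peaks at ZT0.2 and were not called in level in either comparison. Sc5d means ran from 397 ± 140 FPKM at ZT20 to 163 ± 25.6 at ZT12 in RE, and from 369 ± 16.8 at ZT4 to 209 ± 10.1 at ZT12 in WT, without overlap of livers in either. Its rhythm differed between RE and KO (0.75, adjusted p 0.0224), a call lost without KO ZT0 liver 1.

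Among the 19 enzymes called in RE, 16 peaked between ZT22.5 and ZT1.5, around lights on. This span was set after the values were seen, and its share over all genes was not computed. Between ZT20 and ZT4 the count was 18 enzymes and 21 of the 26 members called (80.8%), against 28.8% of all genes called in RE. Over all genes tested, 13.5% were called in RE with a peak in that span. In WT, the 4 enzymes called peaked at ZT18.3 (Lbr), ZT23.6 (Pmvk), ZT1.8 (Hmgcs1) and ZT4.6 (Mvk).

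**Figure D4:**
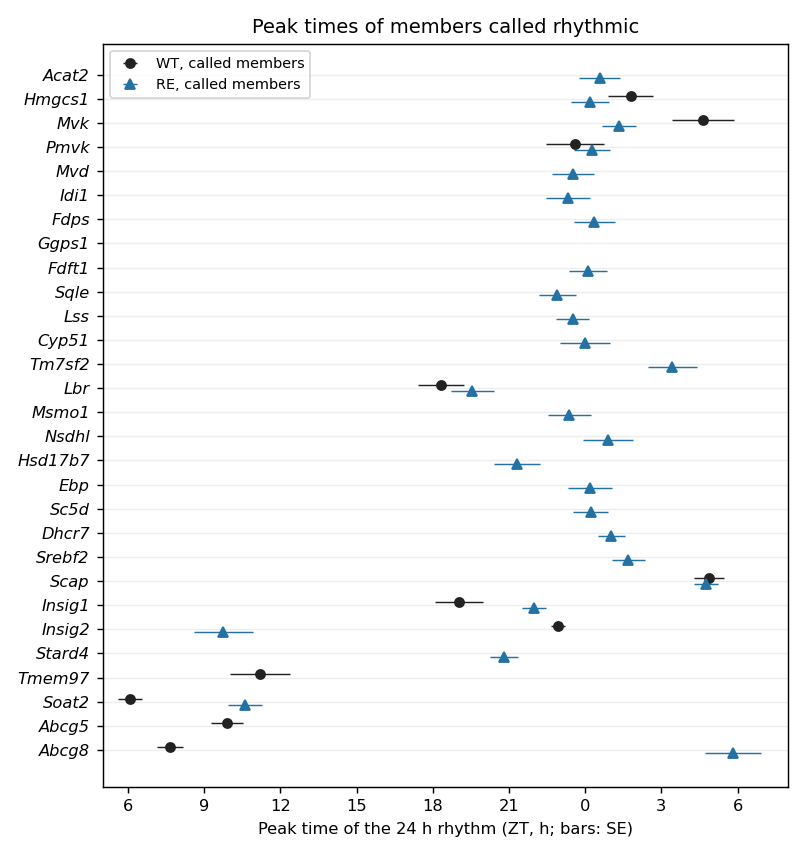
Peak time of each member called rhythmic (x axis, ZT in h from ZT6 through lights on at 0, bars are SE), in pathway order, with WT as black circles and RE as blue triangles. Most RE enzymes fall between ZT22.5 and ZT1.5, the Scap peaks lie at ZT4.9 and ZT4.8, and Insig2 and Soat2 stand elsewhere in RE than in WT.

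The SREBP2 control genes did not move as 1 group. Srebf2, which encodes SREBP2, had WT livers from 7.91 to 14.3 FPKM (median 12.2), KO livers from 10.8 to 22.4 (median 15.8) and RE livers from 7.64 to 21.4 (median 15.6). At ZT12 the WT livers held 9.50, 10.4 and 7.91, the KO livers 16.7, 15.3 and 18.9 and the RE livers 7.64, 11.0 and 10.3, with KO above the others. Srebf2 cycled in RE (0.41, SE 0.07, peak ZT1.7, limma adjusted p 8.42e-05) and was not called in WT (0.13, SE 0.07, adjusted p 0.284). The difference was 0.32 and missed the threshold (adjusted p 0.0573). Its level was 0.38 (SE 0.07) higher in KO and 0.29 (SE 0.07) higher in RE than in WT.

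Scap, the escort of SREBP2, was called in both WT and RE. Its WT means ran from 51.8 ± 12.6 FPKM at ZT8 to 27.0 ± 2.89 at ZT16 and its RE means from 49.5 ± 11.3 at ZT4 to 20.2 ± 3.84 at ZT16. KO means ran from 41.1 ± 7.43 at ZT0 to 29.7 ± 6.36 at ZT16, and the livers of those groups overlapped only in KO. The fitted peak was at ZT4.9 (SE 0.59 h) in WT, ZT4.8 (SE 0.47 h) in RE and ZT5.1 (SE 1.2 h) in KO. Amplitudes were 0.44, 0.56 and 0.21, of which KO was not called (limma adjusted p 0.304, unadjusted p 0.013). The difference between the RE and WT rhythms was not called (0.11, SE 0.10, adjusted p 0.678), and neither level difference was called (KO against WT -0.04, RE against WT -0.16).

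Insig1, an INSIG retention protein whose gene is itself a target of SREBP2, had a different rhythm in RE than in WT. In WT it was highest at ZT16, where the livers held 317, 278 and 369 FPKM, and lowest at ZT8 (149, 146 and 118). In RE it was highest at ZT20 (315, 281 and 197) and lowest at ZT12 (54.7, 89.2 and 71.8), where the WT livers held 132, 175 and 122. The RE livers at ZT12 were all below the WT livers, and those at ZT16 (191, 155 and 134) were again all below them. The fitted peak was at ZT19.0 (SE 0.94 h) in WT and ZT22.0 (SE 0.48 h) in RE, with amplitudes of 0.47 and 0.92. The rhythms differed by 0.67 (limma adjusted p 0.0124), and RE differed from KO by 0.81 (adjusted p 0.0162). Both calls were lost in the test of any difference among times, and the second also with RE and KO fitted alone. The level of Insig1 was 0.40 (SE 0.11) lower in RE than in WT (adjusted p 0.0039) and was not called between KO and WT (-0.18, adjusted p 0.219).

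Insig2, the second INSIG gene, had the largest WT rhythm of the members. Its WT livers held 174, 168 and 231 FPKM at ZT0, 42.5, 69.9 and 60.0 at ZT8 and 27.4, 29.1 and 25.8 at ZT12. The KO livers at ZT12 held 229, 222 and 263 and the RE livers 347, 321 and 362. The KO and RE livers of ZT12 thus lay far above WT, whereas at ZT0 the KO livers (201, 227 and 238) and RE livers (285, 217 and 155) overlapped WT. From ZT0 to ZT12 the WT mean fell 6.96-fold, and the KO means stayed between 215 and 238 FPKM at all 6 times. The amplitude was 1.26 (SE 0.09, peak ZT22.9, limma adjusted p 5.01e-13) in WT and 0.05 (SE 0.09, adjusted p 0.96) in KO. In RE it was 0.30 (SE 0.09) with a peak at ZT9.8 (adjusted p 0.0222), a call lost with RE libraries alone, with no filter, or when liver 2 of RE at ZT0 or liver 1 or 2 of RE at ZT8 was left out. The rhythm differed from WT by 1.30 in KO (adjusted p 7.89e-09) and 1.56 in RE (adjusted p 7.51e-11). Level was 1.23 (SE 0.09) higher in KO and 1.51 (SE 0.09) higher in RE, the largest level differences among the members.

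Of the 2 genes of sterol transport inside the cell, Stard4 was called in RE and Tmem97 in WT. Stard4 carries cholesterol between membranes. In WT its livers held 27.0, 31.9 and 28.3 FPKM at ZT8 and 19.2, 19.9 and 18.8 at ZT12, and in RE they held 11.8, 14.1 and 10.8 at ZT8 and 34.6, 33.0 and 21.3 at ZT20. The RE livers at ZT8 and ZT12 (8.43, 13.7 and 11.4) were all below WT. Stard4 peaked at ZT20.8 in RE (0.66, SE 0.09, limma adjusted p 7.08e-06). It was not called in WT (0.15, adjusted p 0.391) or in KO (0.24, adjusted p 0.412). The RE and WT rhythms differed by 0.81 (adjusted p 0.000155). Its level was 0.26 lower in KO and 0.24 lower in RE (adjusted p 0.0254 and 0.0373), calls that were lost without KO ZT8 liver 2 or KO ZT12 liver 1 and on leaving out any 1 of 14 livers respectively. Tmem97, a sterol-binding membrane protein, was 0.48 higher in KO and 0.45 higher in RE. Its WT livers ran from 65.0 to 117 FPKM and peaked at ZT11.2 (0.25, adjusted p 0.0328), which was lost on leaving out any 1 of 7 WT livers. The WT call was also lost with no filter and in the test of any difference among times. The RE rhythm was not called (0.21, peak ZT1.6, adjusted p 0.0603), but differed from that of WT (0.44, adjusted p 0.0143). That difference was not called in the test of any difference among times.

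Esterification and efflux genes were the group most often called in WT, 3 of 3. Soat2, which stores cholesterol as ester, peaked at ZT6.1 (0.51, SE 0.06) in WT and ZT10.6 (0.37, SE 0.06) in RE. At ZT0 its WT livers held 14.1, 17.6 and 14.4 FPKM and its RE livers 7.12, 9.38 and 9.53, with no overlap. The rhythms differed by 0.51 (limma adjusted p 0.000522). In KO it had an amplitude of 0.28 (peak ZT7.3, unadjusted p 0.00039, adjusted p 0.117), which was called without KO ZT8 liver 1. Abcg5 and Abcg8 form the transporter that moves cholesterol into bile, and their annotations overlap on GRCm38.p6 (chr17:84658174-84683011 and chr17:84676302-84700333), so reads of the pair may be shared.

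Abcg8 means in WT fell from 34.6 ± 5.51 FPKM at ZT8 to 10.1 ± 0.741 at ZT20, 3.42-fold without overlap. In KO the same 2 times had 30.2 to 44.3 and 23.3 to 25.6 FPKM. The amplitude was 0.79 (SE 0.11, peak ZT7.7) in WT and 0.21 (SE 0.11, adjusted p 0.59) in KO, and the rhythms differed by 0.59 (limma adjusted p 0.0277). That call was lost without WT ZT8 liver 1, KO ZT8 liver 1, WT ZT20 liver 2 or KO ZT20 liver 1. It was also lost with no filter and in the test of any difference among times. In RE the amplitude was 0.38 (peak ZT5.8, adjusted p 0.0156), lost without RE ZT8 liver 1 and with RE alone. Abcg5 ranged from 17.0 to 54.8 FPKM in WT, from 33.6 to 89.9 in KO and from 27.1 to 84.8 in RE. It cycled in WT (0.64, SE 0.11, peak ZT9.9, adjusted p 4.19e-05), and its rhythm differences from KO and RE were not called. Level rose by 0.79 (Abcg5) and 0.42 (Abcg8) in KO, and by 0.56 for Abcg5 in RE.

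Level over the 6 times was higher in KO than in WT for 21 members and lower for 1 (22.1% and 20.2% of all genes). In RE it was higher for 17 and lower for 2 (24.2% and 21.7%). The median difference of the members was 0.51 in KO and 0.29 in RE, beside 0.00 and 0.01 over all genes. Of the 20 enzymes 16 were higher in KO, 13 in RE and 12 in both. Enzymes with the largest differences were Hmgcs1 (1.21 and 1.06), Lss (1.06 and 0.92), Mvk (0.94 and 0.75) and Idi1 (0.90 and 0.81), each in KO and RE in that order. These comparisons share the WT livers, in all of which Alb was listed at 0. Between RE and KO no member was called in level (0 higher and 0 lower, limma, against 0.0732% and 0.119% of all genes), 5 had an unadjusted p under 0.05, and the median was -0.12.

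**Figure D5:**
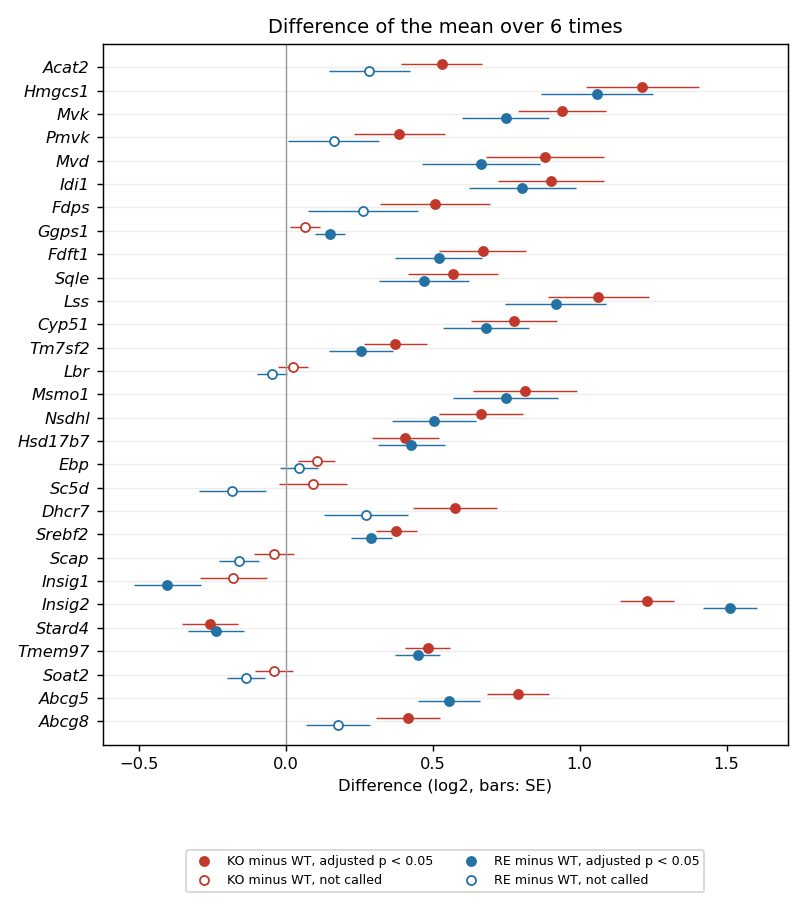
Difference of the mean over 6 times from WT for each member (x axis, log2, bars are SE), with KO minus WT in red and RE minus WT in blue, filled where called. Both colours lie to the right of 0 for most enzymes, and Insig2 lies farthest right in RE, while Insig1 and Stard4 lie to the left.

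Calls of a difference from WT were not spread evenly over the times, which does not by itself show that the difference changed with time. The test of any difference among the 6 times called 2 members between KO and WT (633 of 10932 genes). Between RE and WT it called 3 (7.59% of all genes). KO was called higher for 19 members at ZT12, 9 at ZT0 (4.14% of all genes), 5 at ZT16 (6.48%), 2 at ZT20 (5.58%), 1 at ZT8 (5.28%) and 1 at ZT4 (7.56%), and lower for 1 at ZT4 (3.89%). RE was called higher for 11 members at ZT0 (4.56%), 10 at ZT20 (6.8%), 2 at ZT4 (4.91%), 1 at ZT8 (6.96%), 2 at ZT12 and 2 at ZT16 (9.29%). It was called lower for 1 at ZT0 (4.82%, Soat2), 1 at ZT8 (6.46%), 2 at ZT12 and 1 at ZT16 (9.45%). The counts at ZT0 and ZT20 were less stable than the count at ZT12: they ranged over 2 to 13 (KO, ZT0), 4 to 13 (RE, ZT0) and 2 to 13 (RE, ZT20) when single libraries were left out. Counts at ZT0 fell by more than 1.5 times without liver 0 or 2 of WT, KO or RE at that time (KO to 2 to 4, RE to 4 to 6), and the RE count at ZT20 without any WT liver or liver 0 or 1 of RE (2 to 4).

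Between RE and KO the rhythm differed for 10 members: Hmgcs1, Mvk, Pmvk, Fdft1, Sqle, Lss, Sc5d, Dhcr7, Insig1 and Stard4. The difference was 0.92 for Mvk and 0.89 for Pmvk, and 0.58 for Stard4. This count was sensitive to the processing. It was 2 with no filter, and 0 when RE and KO libraries were fitted alone or when any difference among the 6 times was tested (0.137% of all genes). It was 3 without KO ZT0 liver 1, 17 without KO ZT4 liver 0, and 4 to 6 without livers 0 or 2 of RE ZT0, liver 1 of KO ZT4, liver 0 of RE ZT4, liver 1 of KO ZT8, liver 2 of KO ZT12, liver 0 of RE ZT12, livers 0 or 1 of KO ZT16, or liver 0 of KO or RE at ZT20. Calls of Lss, Dhcr7 and Insig1 held without each library in turn.

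Other genes of the pathway, from lists of 40 genes that are not members, were counted in the same way. All 4 genes of cytosolic acetyl-CoA supply were called in RE and 1 (Aacs) in WT, against 46.8% and 34.8% of all genes. Acly, which makes acetyl-CoA from citrate, had amplitudes of 1.16 (SE 0.16, peak ZT23.5, limma adjusted p 4.15e-06) in RE and 0.31 (peak ZT20.6, adjusted p 0.27) in WT. Its level was 0.59 lower in RE than in WT, and that of Aacs, which activates acetoacetate, was 0.72 lower. The other 2 genes of the list were not called in level. Acss2, Slc25a1 and Aacs had RE amplitudes of 0.87, 0.41 and 0.75 with peaks at ZT0.9, ZT3.1 and ZT22.0. None of the 4 was called in level between KO and WT.

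Of 11 other genes of SREBP processing and sterol sensing, 4 were called in RE and 3 in WT (46.8% and 34.8% of all genes). Their median RE amplitude was 0.13, beside 0.16 over all genes. Erlin1, which takes part in sterol-dependent degradation at the endoplasmic reticulum, peaked at ZT21.7 in RE (0.36, limma adjusted p 1.86e-05) and was 0.57 lower in KO and 0.66 lower in RE than in WT. Mbtps1, the first protease that cuts SREBP2, had an RE amplitude of 0.13 and no called level difference. Of 10 genes of the isoprenoid branch 8 were called in RE (46.8% of all genes), with a median amplitude of 0.19. Among them were Pdss1 (0.32, peak ZT21.2) and Rabggtb (0.30, peak ZT11.5). In level, 5 of the 10 branch genes were higher and 3 lower in KO than in WT (22.1% and 20.2% of all genes). In RE 6 were higher and 1 lower (24.2% and 21.7%).

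Of 11 genes of sterol traffic and efflux 10 were tested (not Soat1). Of these, 7 were called in RE and 3 in WT (46.8% and 34.8% of all genes). Scarb1, the receptor that takes up cholesterol from HDL, peaked at ZT7.6 in RE (0.48, limma adjusted p 1.51e-06) and was 0.55 higher in KO and 0.54 higher in RE. Abca1, which loads cholesterol onto HDL, was 0.33 lower in KO and 0.28 lower in RE. Of 4 genes of bile acid conversion 1 was called in each of WT and RE (34.8% and 46.8% of all genes). Cyp7a1, which starts the classic route to bile acids, cycled in WT (1.12, peak ZT12.3, adjusted p 0.000609) and was not called in RE (0.26, adjusted p 0.582). Cyp8b1, which sets the share of cholic acid, was not called in WT (0.07, adjusted p 0.932) and had an amplitude of 1.03 with a peak at ZT6.1 in RE (adjusted p 2.78e-05).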

How the data were processed

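Liver RNA was measured in 54 RNA-seq libraries. Reads were aligned to mm10 with TopHat, per the submitters' processing notes (version, quantification tool, annotation and use of strand: not given in the sources used here). Per-gene values are FPKM that the authors deposited, already scaled for length and library, with no counts, so depth is unknown and precision rests on the spread between livers. Columns were assigned to groups only. With a pseudocount of 1, log2(FPKM + 1) was fitted for 10932 genes whose highest group mean reached 1 FPKM, with limma 3.58.1 in R 4.3.3 (18 group means, 36 residual degrees of freedom, moderated with a trend). Rhythms were tested with cosine and sine contrasts of a 24 h period; a rhythm difference is given as the amplitude of the difference curve in log2 units. Level tests are two-sided tests of means over 6 times. p values were adjusted by Benjamini-Hochberg over all tested genes, separately for each comparison. The fits were checked on simulated data with independent noise for each gene. That check does not cover livers in which many members moved together. Every member was named; of other lists at most 4 genes with the smallest adjusted p for the RE rhythm, and Arntl. Members and lists were chosen with earlier results of these data known. Some genes of the pathway are not reported here. Alternatives were no filter, a filter at 5 FPKM, a pseudocount of 0.1, median-ratio rescaling, fitting the compared genotypes alone, a test of any difference among times, and leaving out each library.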

Additional observations from a re-analysis of the deposited data

Results flagged for a closer look

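The 24 h rhythm differed between genotypes, by limma's test of the difference itself, for the following members. Sizes are lengths of the difference (log2). Between KO and WT they were 1.05 for Hmgcs1, 1.30 for Insig2 and 0.59 for Abcg8. Between RE and WT they were 0.86 for Msmo1, 0.76 for Dhcr7, 0.67 for Insig1, 1.56 for Insig2, 0.81 for Stard4, 0.44 for Tmem97 and 0.51 for Soat2. Between RE and KO they were 1.13 for Hmgcs1, 0.92 for Mvk, 0.89 for Pmvk, 0.85 for Fdft1, 0.86 for Sqle, 1.14 for Lss, 0.75 for Sc5d, 1.09 for Dhcr7, 0.81 for Insig1 and 0.58 for Stard4. Insig2 had the smallest adjusted p of these 20 differences (7.51e-11, RE against WT), and Sqle the largest (0.0479). KO and RE were set against the same WT livers, so the first 2 comparisons are not independent.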

How the results depend on the processing

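No called level difference of a member changed sign under any alternative tried. The uncalled RE against KO level differences of Msmo1, Hsd17b7, Stard4 and Tmem97 did so when single libraries were left out. Sizes of rhythms and of rhythm differences cannot be negative, so a change of sign could not occur for them. Their peak times were not compared between alternatives. Of 261 results for members, 98 were called and 21 of these lost the call when at least 1 library was left out. With the compared genotypes fitted alone, 21 members cycled in WT, 11 rhythms differed between RE and WT, 0 between RE and KO, and 14 members were higher in KO than WT at ZT0. With no filter, 1 rhythm differed between KO and WT and 2 between RE and KO, 0 members were lower in KO and 1 lower in RE than WT, and 4 were higher in RE at ZT20. Testing any difference among the 6 times left 3 rhythm differences between RE and WT and 0 between RE and KO. No filter adds genes to the adjustment, and fits of the compared genotypes have fewer libraries; the cause of each change was not tested.

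Leaving out each library gave 8 to 12 members with a rhythm in WT, 0 to 1 in KO (1 without KO ZT8 liver 1) and 24 to 27 in RE. Rhythm differences numbered 2 to 5 between KO and WT (5 without KO ZT4 liver 0), 5 to 13 between RE and WT (13 without RE ZT0 liver 1, 11 without KO ZT4 liver 1 or RE ZT8 liver 0) and 3 to 17 between RE and KO. Members with a higher level numbered 19 to 21 in KO and 16 to 19 in RE, and with a lower level 0 to 1 in KO (0 without KO ZT8 liver 2 or KO ZT12 liver 1) and 1 to 3 in RE. Between RE and KO the level counts were 0 to 1 higher (1 without RE ZT8 liver 0) and 0 lower. At single times the counts were 2 to 13 (KO, ZT0), 12 to 20 (KO, ZT12), 4 to 13 (RE, ZT0) and 2 to 13 (RE, ZT20).

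No paired analysis was possible because no label pairs livers, and the columns carry other numbers than the replicate numbers of the sample titles. Whether livers with the same replicate number had anything in common was not stated in the labels. Depth is unknown, so precision could not be set by counting, and with 3 livers per group single livers decided many of the differences between rhythms.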
